A study of Mus musculus with 6 samples.

Results

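The genes described here are the mitochondrial ribosomal protein genes, measured by RNAseq in hearts of NBCe1-B/C KO and WT mice. They were chosen by name alone: every protein-coding gene in the deposited table whose Ensembl identifier carries a mouse symbol that starts with *Mrpl* or *Mrps* followed by a number. This gave 78 of the 16018 genes in the table, namely 51 that code for proteins of the large ribosomal subunit (49 *Mrpl* genes with *Mrps18a* and *Mrps30*), 26 for proteins of the small subunit, and *Mrps36*, whose product is now known as a subunit of the 2-oxoglutarate dehydrogenase complex. All 78 passed the filter on low values. They make up the whole family of that name in the annotation (78 genes), and 2 pseudogenes of the same family that are also listed, *Mrpl23-ps1* and *Mrpl48-ps*, were left out.

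Mitochondria carry their own ribosome, which makes the few respiratory chain proteins that mitochondrial DNA encodes. Its RNA comes from mitochondrial DNA, but its proteins are all encoded in the nucleus, made in the cytosol and imported, and many of them have no counterpart in bacteria. The heart depends on this machinery because it lives mainly on oxidative phosphorylation, and inherited defects of several mitochondrial ribosomal proteins cause cardiomyopathy in people.

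The study compared 3 female NBCe1-B/C KO mice with 3 female WT mice, all between 4 and 5 weeks of age, with whole-heart total RNA from each mouse sequenced as a separate library. NBCe1 is the electrogenic sodium bicarbonate cotransporter encoded by *Slc4a4*. The knockout removes its B and C variants in every tissue and spares the A variant of the kidney, so it is not particular to the heart, and the mice came from heterozygous crosses on a C57BL/6J background. In such bulk samples, fewer cells of a type and less RNA per cell cannot be told apart.

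The library labelled NBCe1-B/C KO replicate 2 did not match its label at the targeted gene. *Slc4a4* was at 264 and 269 normalized counts in KO replicates 1 and 3 but at 945 in KO replicate 2, and the WT libraries held 675, 822 and 789. Replicate 2 thus lay above every WT library, while the other 2 KO libraries lay below every WT library. The main counts and medians of the family are therefore given with and without this library. Other results, among them the values of single genes, the split by subunit and the companion lists, include it unless stated. A KO library is one labelled so throughout. Counts were read from the authors' normalized values, which are reads per gene divided by a factor per library and not scaled to gene length. Reads on genes ranged from 42619258 to 49100802 in KO and from 41364857 to 42037397 in WT libraries.

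All 78 genes were expressed in the heart. The mean over the 6 libraries ran from 69.1 to 11444 normalized counts, with a median of 1995, and 1 member lay under 500. Divided by the length of the longest annotated transcript, the level ran from 97.3 to 5267 normalized counts per kb, a 54.1-fold span, and the middle 50% of members lay between 551 and 1753. The family is therefore not expressed at a common RNA level, although most of its products enter the ribosome as single copies.

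*Mrpl12* had the highest level per kb. Its product forms the flexible stalk that recruits translation factors, and it is the member present in several copies per ribosome. In WT hearts it stood at 5919 ± 486 normalized counts per kb (SD, n = 3). It was followed by the small subunit gene *Mrps21* at 5129 ± 246 and by *Mrps23*, a mitochondria-specific small subunit protein, at 4979 ± 158. *Mrps21* and *Mrps23* did not differ beyond their spread. The large subunit genes *Mrpl18* and *Mrpl14* came next, at 3899 ± 210 and 3680 ± 403 in WT. At the other end, *Mrpl53* stood at 116 ± 28.4 per kb in WT, and *Mrps10*, *Mrpl19*, *Mrps30* and *Mrpl17* all lay between 229 and 238 in WT with overlapping spreads. The order depends on the transcript chosen. *Mrpl17* has a longest transcript of 7300 bases for a coding length of 528, and per kb of coding sequence the highest member was *Mrpl42* at 26863, while *Mrpl53* at 195 and *Mrps30* at 668 remained the lowest.

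The promoters of these genes are shown because the family is known to be controlled together by a few factors of nuclear genes for mitochondria, among them NRF1, the ETS factor GABP, YY1 and the oestrogen-related receptors. RefSeq windows (GRCm38.p6) of 250 bases before to 50 bases after the start were found for 69 of the 78 members, and the first listed window of each gene was searched on both strands. The NRF1 core GCGCATGC was found in 8 of them (11.6%), against 5.16% of the windows of 10927 protein-coding genes tested here and 2.80% of all 27025 windows. The ETS core CCGGAAGT was found in 11 (15.9%), against 7.82% and 4.00%. The YY1 core AAGATGGCG was found in 8 (11.6%), against 2.97% and 1.49%. The ERR core TCAAGGTCA was found in 0 of the 69, against 0.265% and 0.407%. In all, 25 members held at least 1 of these words, a count that was not made over the other windows. A match is only a run of letters and not a site of binding.

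The 6 windows below run from 100 bases before to 30 bases after the start, 5′ to 3′ on the gene's own strand, with the motif letters in capitals. *Mrpl12* is shown as the highest member, with no match. *Mrpl33* holds an NRF1 and an ETS core side by side with no overlap, *Mrpl52* an ETS core read on the other strand, and *Mrpl32* 4 NRF1 matches, of which 2 overlap because the word is nearly a palindrome. *Mrpl36* holds a YY1 core read on the other strand, and *Mrps27* holds an ETS and a YY1 core.
Mrpl12, chr11:120484537-120484666, plus strand: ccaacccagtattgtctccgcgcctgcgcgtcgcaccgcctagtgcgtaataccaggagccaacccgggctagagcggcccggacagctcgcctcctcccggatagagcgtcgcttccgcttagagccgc
Mrpl33, chr5:31613851-31613980, plus strand: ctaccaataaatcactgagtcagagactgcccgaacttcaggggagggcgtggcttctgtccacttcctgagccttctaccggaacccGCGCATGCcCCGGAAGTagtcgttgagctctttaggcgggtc
Mrpl52, chr14:54426809-54426938, plus strand: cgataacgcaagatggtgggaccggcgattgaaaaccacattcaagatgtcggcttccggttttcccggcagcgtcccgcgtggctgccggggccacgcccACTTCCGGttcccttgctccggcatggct
Mrpl32, chr13:14613008-14613137, minus strand: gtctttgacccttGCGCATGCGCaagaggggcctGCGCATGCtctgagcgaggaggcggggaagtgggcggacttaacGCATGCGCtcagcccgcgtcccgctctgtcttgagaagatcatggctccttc
Mrpl36, chr13:73330909-73331038, plus strand: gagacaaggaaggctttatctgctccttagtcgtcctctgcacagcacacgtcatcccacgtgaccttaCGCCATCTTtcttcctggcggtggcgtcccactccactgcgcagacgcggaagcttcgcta
Mrps27, chr13:99344686-99344815, plus strand: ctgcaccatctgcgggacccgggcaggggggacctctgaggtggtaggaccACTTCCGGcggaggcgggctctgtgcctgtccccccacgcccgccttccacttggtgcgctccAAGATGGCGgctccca

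Across the family, the values were lower in KO hearts by a small amount, and no single gene passed the main test. The log2 fold change, KO minus WT on log2(normalized count + 1), was below 0 for 75 of the 78 members, against 50.8% of the 16016 genes tested. Its median over the members was -0.17, a difference of -10.9%, with the middle 50% between -0.23 and -0.08, while the median over all genes tested was -0.004. All 3 KO libraries lay below all 3 WT libraries for 40 members, 26 of the large and 14 of the small subunit, against 14.6% of all genes, and for 0 members did they all lie above, against 15.6%. The median was -0.17 for the 51 genes of the large and -0.18 for the 26 of the small subunit.

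By limma, fitted over all genes with Benjamini-Hochberg adjustment, 0 members passed an adjusted p of 0.05, as did 0% of all genes. The lowest adjusted p of a member was 0.0815. At an unadjusted p under 0.05, 37 members were lower in KO, against 10.5% of all genes, and 0 were higher, against 13.0%. edgeR on the recovered reads called 0 members at an adjusted p of 0.05. DESeq2 on the same reads called 20 members lower, 14 of the large and 6 of the small subunit, against 3.76% of all genes, and 0 higher, against 6.15%. Without KO replicate 2, limma gave 28 members lower at an unadjusted p under 0.05, against 8.92% of all genes, and a median of -0.15. Both remaining KO libraries lay below all WT libraries for 42 members, against 19.4%, and DESeq2 called 9 lower, against 2.52% of all genes.

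**Figure D1:**
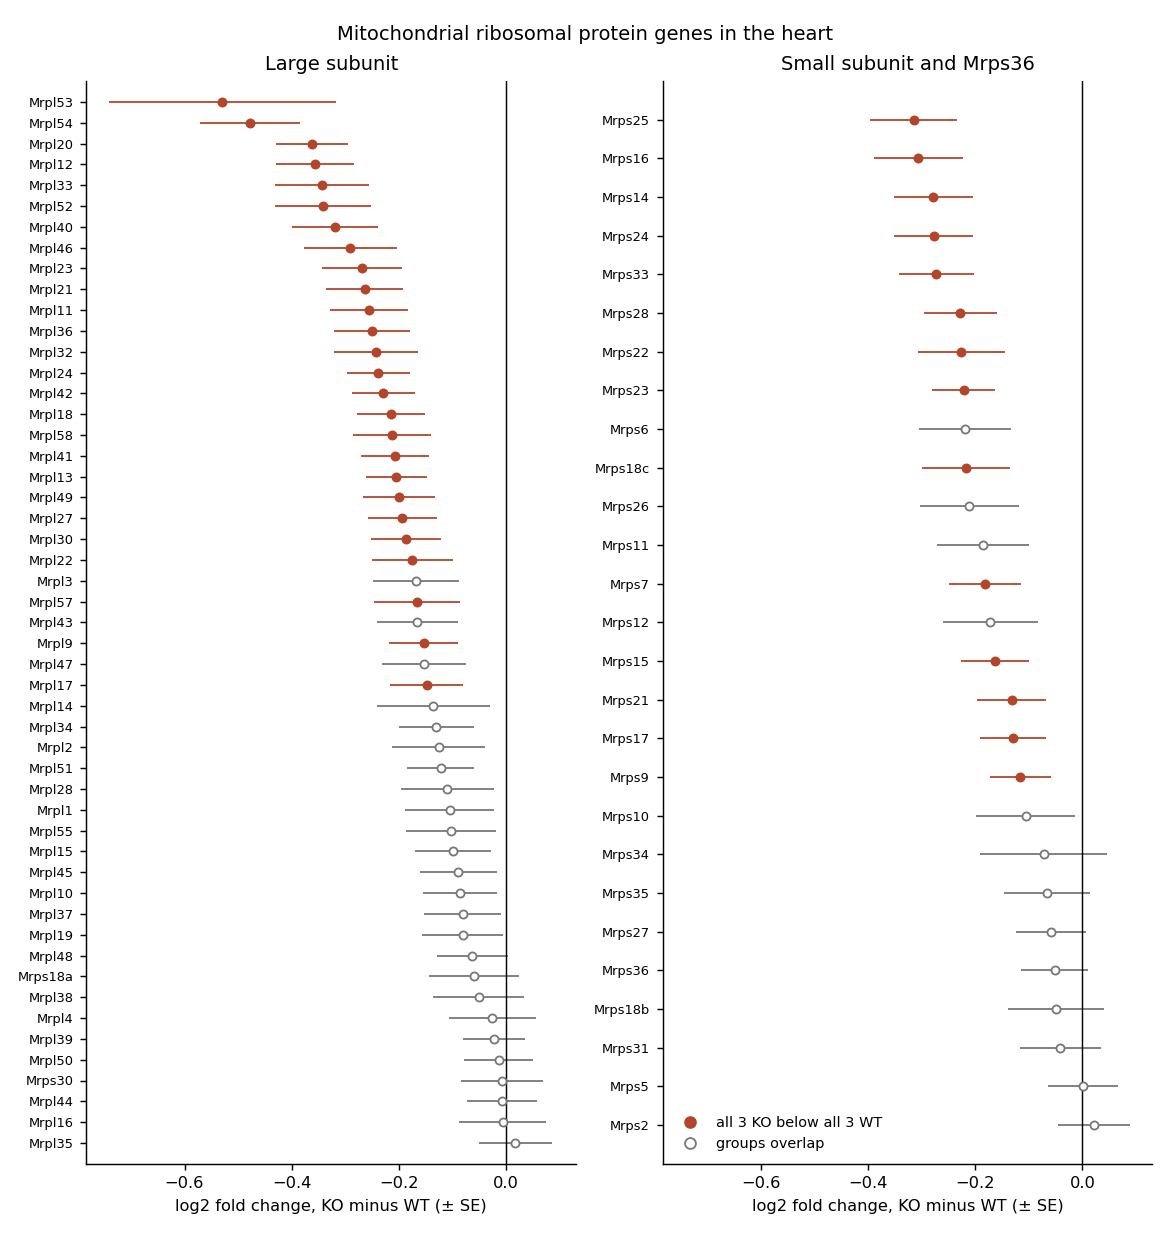
Log2 fold change (KO minus WT, horizontal axis) of each of the 78 genes with its standard error from limma, with the large subunit on the left and the small subunit with Mrps36 on the right. Filled points mark the 40 members for which all 3 KO libraries lay below all 3 WT libraries, and 75 of the 78 points lie left of 0.

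The largest differences were in genes of the large subunit. *Mrpl54*, a mitochondria-specific protein of the large subunit, stood at 854, 1022 and 833 normalized counts in the KO replicates and at 1315, 1236 and 1210 in the WT replicates. The highest KO library lay well below the lowest WT library, and the difference was -0.48 ± 0.09 (SE) on the log2 scale. It did not pass by limma (adjusted p = 0.0815) and fell by DESeq2 (adjusted p = 0.00147).

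*Mrpl12*, the stalk gene, stood at 6195, 6150 and 5875 in KO and at 8504, 7600 and 7266 in WT. The KO libraries lay close together, and the spread was mostly among the WT libraries, of which replicate 1 was the highest. The log2 difference was -0.36 ± 0.07, or -22.0%, and the DESeq2 adjusted p was 0.00143. *Mrpl10*, whose product anchors the stalk on the ribosome, did not share the separation. It stood at 2199, 2172 and 2178 in KO and 2389, 2430 and 2144 in WT, with WT replicate 3 below all KO libraries and a log2 difference of -0.09 ± 0.07.

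*Mrpl20*, which codes for a large subunit protein with a bacterial counterpart, stood at 986, 1046 and 1050 in KO and at 1345, 1297 and 1317 in WT. Both groups were tight, and the gap between them was several times the spread within either. The log2 difference was -0.36 ± 0.07, with a DESeq2 adjusted p of 0.00277.

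*Mrpl33*, the gene with adjacent NRF1 and ETS cores above, stood at 1992, 1693 and 1869 in KO and at 2451, 2128 and 2472 in WT. WT replicate 2 lay nearest to the KO libraries. The log2 difference was -0.34 ± 0.09, with a DESeq2 adjusted p of 0.0115. *Mrpl52*, also shown above, stood at 722, 851 and 852 in KO against 1056, 968 and 1042 in WT, and its log2 difference was -0.34 ± 0.09. The groups did not overlap in either gene.

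*Mrpl53* had the largest fold of the family and the weakest measurement. It stood at 58.6, 53.8 and 55.0 in KO and at 104, 77.96 and 65.0 in WT, with all WT libraries above all KO libraries and WT replicate 1 the farthest from them. The log2 difference was -0.53 ± 0.21, or -0.35 without WT replicate 1, and it had the largest spread within groups of all members (SD 0.25 on the log2 scale, against a median of 0.08). DESeq2 gave it no adjusted p. The gene also lies within the span of other genes in the table, *Gm42688* on the same strand at 74.7 and *Ccdc142os* on the other strand at 32.1 normalized counts, so reads could be shared.

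**Figure D2:**
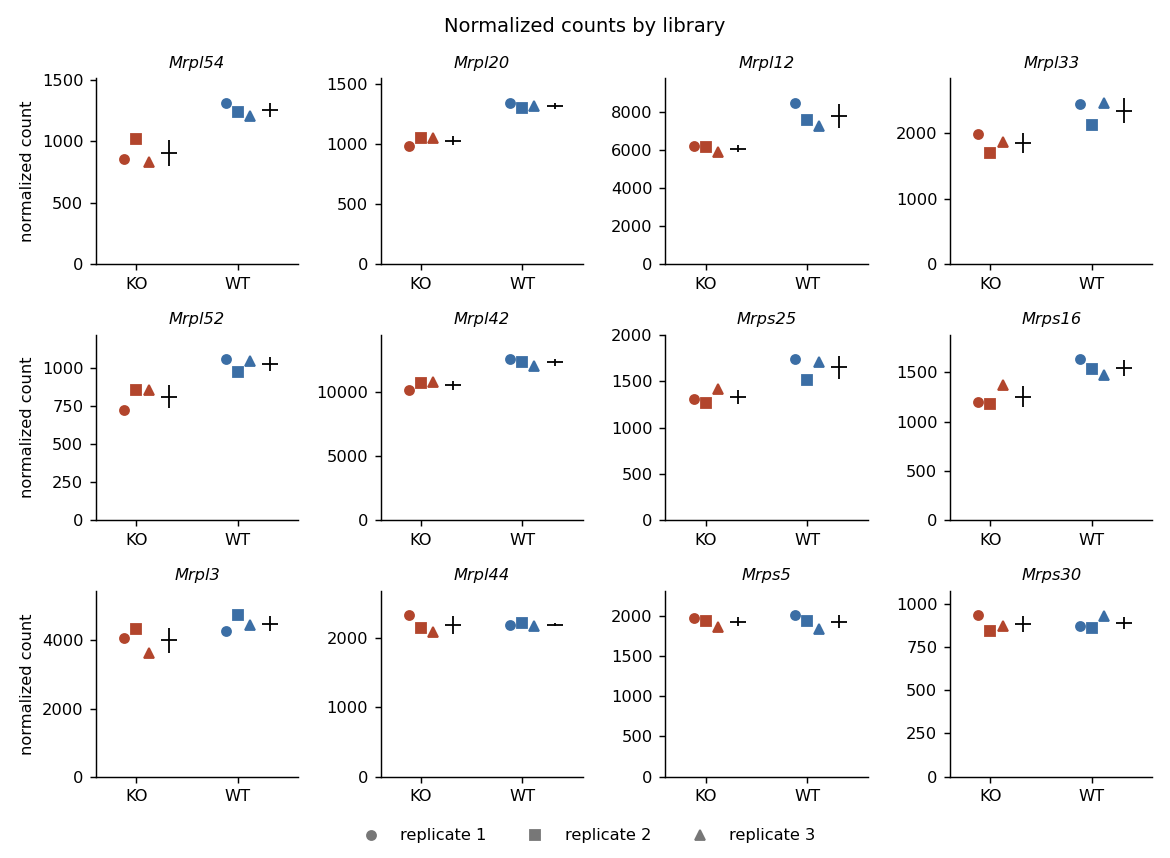
Normalized counts (vertical axes, each from 0) of 12 members in the 3 KO and 3 WT libraries, with the marker shape giving the replicate number and the black bars the mean and SD. In the upper 8 panels all KO libraries lie below all WT libraries, while Mrpl3, Mrpl44, Mrps5 and Mrps30 in the bottom row overlap between the groups.

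Among the well-expressed members, *Mrpl42* had the highest count of the family. It stood at 10147, 10693 and 10778 in KO and at 12605, 12353 and 12087 in WT. The groups were apart by more than the spread of either, with a log2 difference of -0.23 ± 0.06 and a DESeq2 adjusted p of 0.0127. *Mrps23* stood at 6155, 6000 and 5826 in KO and 7212, 6991 and 6768 in WT, a log2 difference of -0.22 ± 0.06. *Mrpl18*, at 4203, 4016 and 4058 in KO and 4990, 4786 and 4481 in WT, differed by -0.21 ± 0.06. *Mrps21* and *Mrpl14*, the other 2 of the 5 most abundant per kb, differed by -0.13 ± 0.06 and -0.14 ± 0.11, and only the groups of the first were apart. *Mrpl14* and *Mrps34*, with *Mrpl53*, had the widest spread within groups, at an SD of 0.16 and 0.19 on the log2 scale.

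*Mrpl23* and *Mrpl24*, which line the exit of the ribosomal tunnel, where the new chain meets the inner membrane, stood at 1695 to 1886 and 2251 to 2331 in KO and at 2056 to 2320 and 2638 to 2803 in WT. Their log2 differences were -0.27 ± 0.08 and -0.24 ± 0.06, and both fell by DESeq2 (adjusted p = 0.0331 and 0.0236). *Mrpl45*, whose product ties the ribosome to the inner membrane, overlapped between the groups at 2304 to 2481 in KO and 2356 to 2686 in WT, with a difference of -0.09 ± 0.07. *Mrpl17*, also a protein of the exit region, was apart between the groups at -0.15 ± 0.07. The differences between these members were not tested.

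*Mrpl32*, whose product is trimmed by the inner membrane AAA protease before it can join the ribosome, stood at 1040, 948 and 1059 in KO and at 1226, 1126 and 1254 in WT. The log2 difference was -0.24 ± 0.08, with a DESeq2 adjusted p of 0.0838. *Mrpl58*, a peptidyl-tRNA hydrolase that frees chains from stalled ribosomes, stood at 1847 to 1963 in KO and 2023 to 2315 in WT, a difference of -0.21 ± 0.07 (adjusted p = 0.0898). Neither gene overlapped between the groups.

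Defects of the human counterparts of *Mrpl3*, *Mrpl44*, *Mrps22* and *Mrps14* can cause cardiomyopathy, and the groups overlapped in the first pair and were apart in the second. *Mrpl3* stood at 4058, 4348 and 3620 in KO and 4287, 4738 and 4462 in WT, with KO replicate 2 above WT replicate 1 and a log2 difference of -0.17 ± 0.08. *Mrpl44* stood at 2325, 2138 and 2089 in KO and 2188, 2219 and 2171 in WT. Its KO libraries lay on either side of the WT libraries, and the difference was -0.01 ± 0.07. *Mrps22* stood at 1008, 902 and 979 in KO and 1167, 1042 and 1173 in WT, a difference of -0.23 ± 0.08 that did not pass by DESeq2 (adjusted p = 0.122). *Mrps14*, named after its values were seen, stood at 1544, 1528 and 1605 in KO and 2057, 1834 and 1792 in WT, a difference of -0.28 ± 0.07 that passed by DESeq2 (adjusted p = 0.0257) but not with the length and GC correction (adjusted p = 0.220).

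In the small subunit, *Mrps25* and *Mrps16* had the largest differences. *Mrps25*, a mitochondria-specific protein, stood at 1309, 1264 and 1416 in KO and at 1743, 1514 and 1711 in WT, a log2 difference of -0.31 ± 0.08 with a DESeq2 adjusted p of 0.0186. *Mrps16*, which has a bacterial counterpart and is mutated in a human respiratory chain deficiency, stood at 1200, 1177 and 1374 in KO and at 1634, 1528 and 1470 in WT, a difference of -0.31 ± 0.08 with an adjusted p of 0.0286. In both genes KO replicate 3 was the highest of its group and still lay below every WT library.

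*Mrps7*, which binds the head of the small subunit, differed by -0.18 ± 0.07, and its groups were apart. *Mrps12*, a protein of the decoding centre, stood at 1178 to 1272 in KO and 1217 to 1473 in WT and overlapped, at -0.17 ± 0.09. *Mrps27*, *Mrps10* and *Mrps34* overlapped as well, at -0.06 ± 0.07, -0.11 ± 0.09 and -0.07 ± 0.12. *Mrps5* stood at 1977, 1943 and 1864 in KO and 2008, 1931 and 1843 in WT, nearly the same values in both groups, and its difference was 0.001 ± 0.06.

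The 3 *Mrps18* paralogs, which arose from 1 ancestral gene and occupy different places in the ribosome, are given side by side. *Mrps18c* stood at 908, 837 and 945 in KO and at 1120, 1017 and 992 in WT. Its groups did not overlap, with a difference of -0.22 ± 0.08. *Mrps18b* and *Mrps18a* overlapped, at -0.05 ± 0.09 and -0.06 ± 0.08. *Mrps18a* and *Mrps30*, both in the large subunit despite their names, were both near 0 in their difference, and *Mrps30* stood at 934, 846 and 873 in KO against 875, 863 and 928 in WT. *Mrps36*, not a ribosomal protein, differed by -0.05 ± 0.06. No test between these genes was made.

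The 3 members above 0 were *Mrps2*, *Mrpl35* and *Mrps5*, of which *Mrps2* and *Mrpl35* are named for this after their values were seen. *Mrps2* stood at 1186, 1173 and 1150 in KO and 1162, 1195 and 1102 in WT, and *Mrpl35* at 1260, 1249 and 1266 against 1232, 1311 and 1190. Both overlapped between the groups, and the highest difference in the family was 0.02.

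The differences moved with gene length, in this family and across the transcriptome. Over 15978 genes with a known transcript, the fold change and the length of the longest transcript had a Spearman's rho of 0.45, a description over genes that share the same 6 libraries. In the shortest of 12 length bins (up to 1025 bases) the median log2 difference of all genes was -0.20, and in the longest (from 6994 bases) it was 0.24. Within each library, the deviation from the gene mean had a rho with length of 0.17 to 0.35 in the KO libraries and of -0.34 to -0.24 in the WT libraries. Mitochondrial ribosomal protein genes are short, with a median coding length of 582 bases against 1383 for all genes tested. Set beside the median of the other genes in their own length bin, 53 of the 78 members were lower, by a median of -0.06.

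Within the family, the difference followed the coding length more closely than the transcript length, with a rho of 0.52 and 0.28 over the 78 members. Of the 26 members with the shortest coding sequences (195 to 477 bases) 17 had all KO below all WT libraries, of the 26 in the middle (480 to 753 bases) 18, and of the 26 with the longest (756 to 1326 bases) 5. Over all genes tested this share was 14.6%, to which the group with the longest coding sequences came near. The median differences of the short, middle and long group were -0.21, -0.21 and -0.08. A correction that removed a smooth trend in length and GC content from each library brought the family's median to -0.07, or -4.49%, and left 54 members below 0, against 47.6% of all genes, and 19 lower at an unadjusted p under 0.05, against 6.69%. All KO libraries then lay below all WT libraries for 20 members, against 10% of all genes, and above them for 1, against 11.2%. The remaining difference was uneven across members. By longest transcript, groups of 26 members had corrected medians of -0.02 (488 to 1138 bases), -0.03 (1219 to 2741) and -0.16 (2799 to 7300). The rho with that length went from 0.28 to -0.44. By coding length, the corrected medians of the short, middle and long group were -0.09, -0.10 and -0.01. Whether the correction lowered members with long transcripts too far was not tested. Without KO replicate 2 the corrected values gave 12 members lower at an unadjusted p under 0.05, against 5.81%. In DESeq2 with the same correction, 2 members were called lower, *Mrps25* (adjusted p = 0.00392) and *Mrpl13* (adjusted p = 0.00852), against 1.05% of all genes. The other 18 of the 20 members called without the correction were not called. With the principal transcript in place of the longest, the median was -0.03 and 11 members were lower at an unadjusted p under 0.05, against 6.18%. All KO libraries then lay below all WT libraries for 13 members, against 9.33%, and above them for 4, against 10.8%. By subunit, the corrected medians were -0.08 (large) and -0.06 (small) with the longest transcript, and -0.05 and 0.01 with the principal one. Whether the length trend arose in the libraries or in the hearts was not tested, and it cannot be told apart from genotype here, since its sign was the same in all KO libraries and opposite in all WT libraries.

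**Figure D3:**
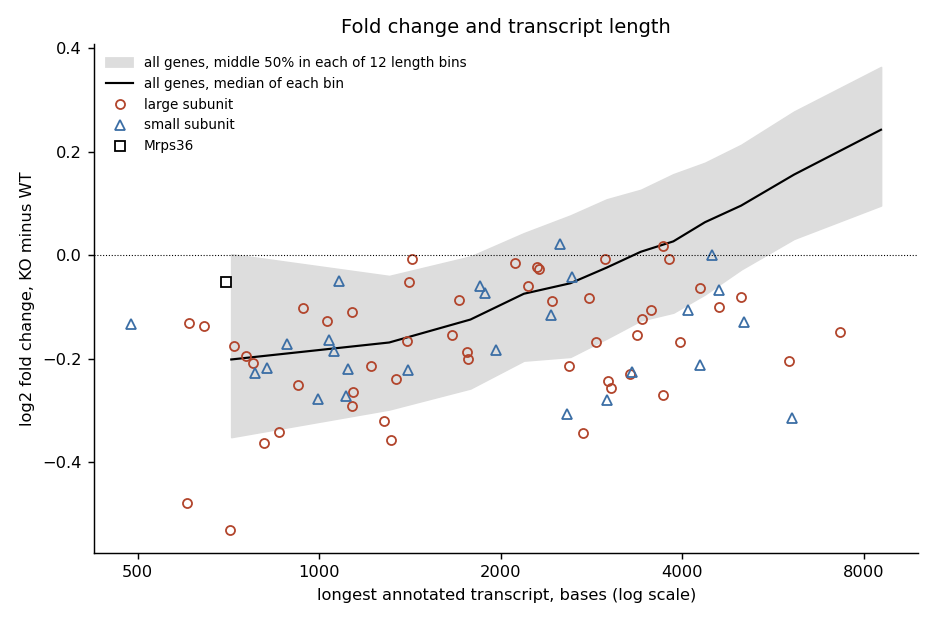
Log2 fold change (KO minus WT) against the length of the longest annotated transcript in bases on a log axis, with circles for the large subunit, triangles for the small subunit and a square for Mrps36. The line and grey band give the median and middle 50% of all genes in 12 length bins, whose median rises from -0.20 to 0.24, and 53 of the 78 members lie below the median of their own bin.

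The correction did not treat all members alike. *Mrps25*, with a longest transcript of 6073 bases, went from -0.31 to -0.46, and *Mrpl17* from -0.15 to -0.32. *Mrpl54*, *Mrpl12* and *Mrpl20*, with longest transcripts of 604, 1316 and 810 bases, went to -0.27, -0.19 and -0.19. *Mrpl3* went from -0.17 to -0.19 and *Mrpl44* from -0.01 to 0.13. *Mrpl42* and *Mrpl33* stood at -0.20 and -0.30 with the longest transcript but at 0.01 and -0.09 with the principal one, since the 2 models of these genes differ in length (3277 against 666 bases for *Mrpl42*). *Mrpl13* likewise stood at -0.33 and -0.03.

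Library by library, the family's median deviation from the gene mean was -0.06, -0.11 and -0.07 on the log2 scale in the KO libraries and 0.16, 0.09 and 0.03 in the WT libraries, each in the order of their replicate numbers. WT replicate 1 was the highest of the 6 libraries for 58 members, and KO replicate 2, the library with WT-level *Slc4a4*, was the lowest for 41. WT replicate 3 was the lowest of the 6 for 11 members and lay nearest to the KO libraries. The family took 0.357% to 0.388% of all normalized counts in KO and 0.423% to 0.458% in WT libraries, with no overlap. After the length and GC correction the medians were 0.06, -0.07 and -0.08 in KO and 0.11, 0.04 and -0.05 in WT, and the groups overlapped.

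**Figure D4:**
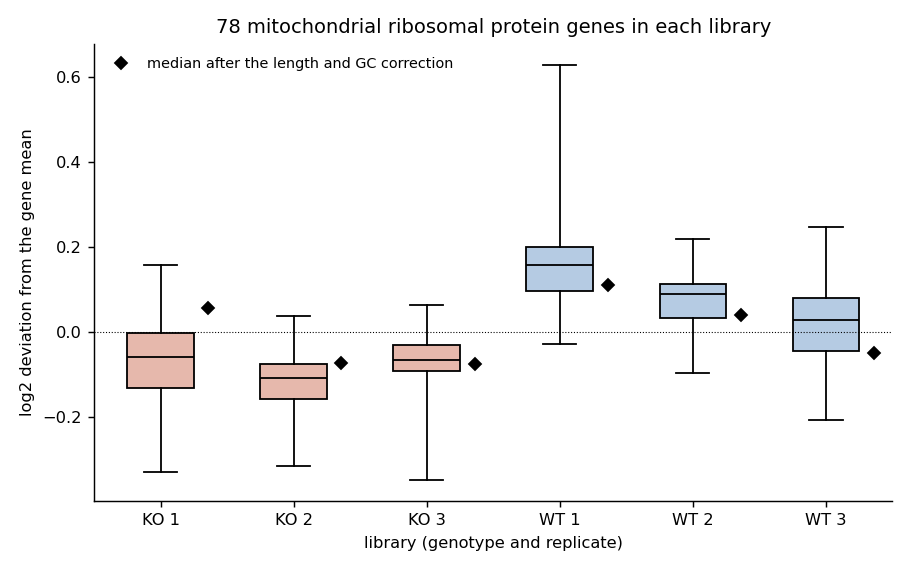
Deviation of the 78 genes from their own mean over the 6 libraries (log2 scale, vertical axis) in each library, as boxes from the first to the third quartile with the median as a line and whiskers to the lowest and highest gene. Diamonds give the median after the length and GC correction, by which KO replicate 1 moves above 0 and WT replicate 3 below it.

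Markers of other cell types also moved between libraries. Cell cycle markers (5 of 5 tested) summed to 633 to 837 normalized counts in KO and to 861 to 3010 in WT, with WT replicate 1 the highest, as it was for the mitochondrial ribosomal genes. Brown fat markers (5 of 5) summed to 1001 to 6456 in KO and 2247 to 4945 in WT, atrial markers (4 of 4) to 15430 to 88185 and 24703 to 109119, and erythroid markers (4 of 4) to 28532 to 129687 and 50972 to 114181, each with overlap. Macrophage markers (4 of 4) summed to 4744 to 5209 and 5152 to 5559, lymphoid markers (3 of 5 in the table, without *Cd3e* and *Rag1*) to 35.7 to 80.6 and 49.5 to 94.6, endothelial markers (5 of 5) to 36632 to 39631 and 33833 to 36179, and fibroblast markers (5 of 5) to 46512 to 53902 and 44746 to 46683. The 8 cardiomyocyte markers, all present, summed to 2681690 to 3014590 in KO and 2317650 to 2425420 in WT. Gene by gene they were mixed, with 5 of the 8 above 0 in their log2 fold change and 3 below. Of the 5 endothelial markers, 4 were above 0 and 1 below. The part of these marker lists in the family's difference was not tested.

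The rest of the mitochondrial translation pathway gave mixed values. Of the 5 ribosomal proteins under other symbols, all were below 0 with a median of -0.18. *Chchd1* and *Aurkaip1*, both of the small subunit, fell by DESeq2, at -0.34 ± 0.08 (adjusted p = 0.00650) and -0.23 ± 0.06 (adjusted p = 0.0365). Neither passed in DESeq2 with the length and GC correction (adjusted p = 0.429 and 0.862), where the limma median of the 5 was -0.10. *Dap3*, *Gadd45gip1* and *Ptcd3* stood at -0.08, -0.18 and -0.03 and did not pass. Of the 23 assembly and rRNA modification genes, 15 were below 0 with a median of -0.08 and 0 passed an adjusted p of 0.05 by DESeq2, and after the correction 11 were below 0 with a median of 0.01. The lowest of them was *Malsu1*, which keeps the new large subunit from pairing too early, at -0.27 ± 0.09 with an adjusted p of 0.0994.

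Before the length and GC correction, lists of genes that act in mitochondrial translation or gene expression outside the ribosome had medians near 0. The 14 translation factors tested had a median of 0.01, with 6 below 0, and the elongation factor *Tufm* stood at 0.01 ± 0.08. The 21 aminoacyl-tRNA synthetases and related enzymes had a median of 0.02 with 8 below 0, and the 10 genes of mitochondrial DNA transcription and upkeep a median of -0.02 with 6 below 0. After the correction these 3 medians were 0.08, 0.02 and 0.01. In these 3 lists 0 genes passed by DESeq2 or limma. At an unadjusted p under 0.05 by limma, 1 gene was lower in each, against 10.5% of all genes. At the same threshold 1, 1 and 0 were higher, against 13.0%. After the correction 3, 0 and 2 were lower, against 6.69%, and 2, 3 and 0 were higher, against 7.75%.

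The 9 biogenesis regulators, which include the factors whose motifs were searched, had a median of 0.09 with 3 below 0, and 0 of them passed an adjusted p of 0.05 by limma or DESeq2. After the correction their median was -0.03 with 6 below 0, and with the principal transcript 0.05 with 4 below 0. *Nrf1* stood at -0.003 ± 0.08, *Gabpa* at 0.15 ± 0.07, *Yy1* at 0.09 ± 0.07 and *Esrra* at -0.11 ± 0.08, and the coactivator *Ppargc1a* at 0.32 ± 0.13 (DESeq2 adjusted p = 0.0685). The 13 mitochondrially encoded mRNAs, which the mitochondrial ribosome translates, had a median of 0.15 with 1 below 0. By DESeq2, 3 of them rose, *mt-Nd2*, *mt-Nd4l* and *mt-Nd5*, against 6.15% of all genes. Their median deviation from the gene mean was 0.22, 0.04 and -0.04 in KO and -0.08, -0.11 and -0.03 in WT. KO replicate 1 was thus the highest, and the groups overlapped. After the correction the median log2 fold change was 0.33 with 0 below 0. The deviations were then 0.38, 0.13 and -0.03 in KO and -0.15, -0.14 and -0.21 in WT. The 2 mitochondrial rRNAs, *mt-Rnr1* and *mt-Rnr2*, were not among the genes of the table and so were not analysed.

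The nuclear genes of respiratory complex I and of the cytosolic ribosome, both also short, had medians of -0.21 and -0.36. All KO libraries lay below all WT libraries for 26 of 38 and 73 of 74 of them, against 14.6% of all genes. After the length and GC correction their medians were -0.04 and -0.21. With the principal transcript the corrected medians were 0.03, with 17 of 38 below 0, and -0.13, with 68 of 74 below 0. For the mitochondrial ribosomal genes these values were 40 of 78, -0.07 and -0.03 with 43 of 78 below 0.

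**Figure D5:**
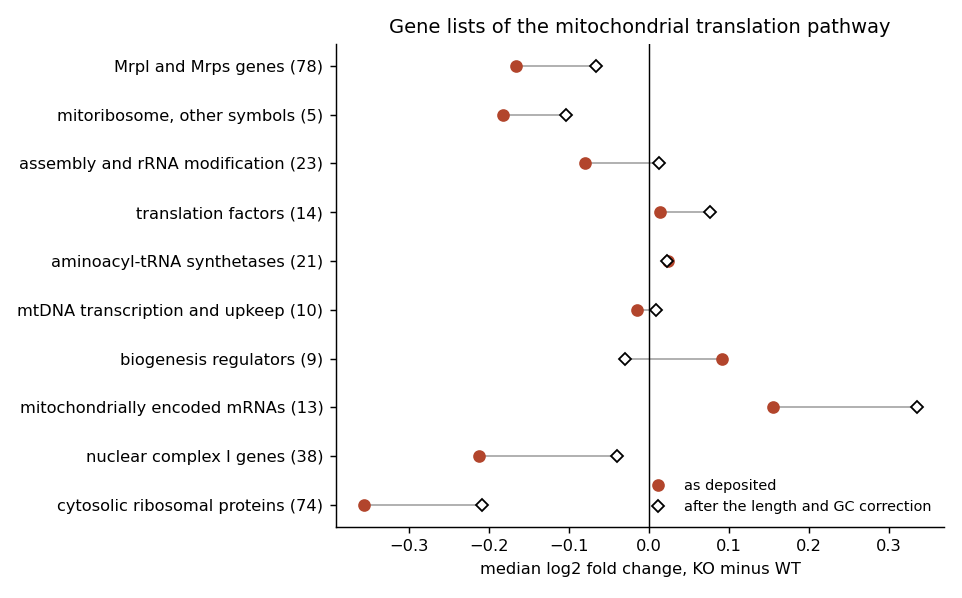
Median log2 fold change (KO minus WT, horizontal axis) of the mitochondrial ribosomal protein genes and 9 related gene lists, with the number of genes tested in parentheses, as deposited (filled circles) and after the length and GC correction (open diamonds). The mitochondrial ribosomal lists, the complex I genes and the cytosolic ribosomal proteins lie below 0 in both, whereas the translation factors, synthetases and mitochondrially encoded mRNAs lie above 0 in both.

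Many members share their start region or their span with another gene. By the outermost starts in GENCODE M21, a protein-coding gene on the other strand starts up to 1000 bases upstream of 19 members, or overlaps them by at most 100 bases (24.4%), against 10.1% of 14011 protein-coding genes tested. *Mrpl46* and *Mrps11* overlap each other by more than that and are not counted. Of the 18 such partners in the table, 10 were below 0, near the 50.8% of all genes tested. Their median was -0.07, while the 19 members themselves had a median of -0.17. *Mrpl49* stood at -0.20 and its partner *Fau*, a cytosolic ribosomal protein gene, at -0.35, *Mrpl36* at -0.25 and its partner *Ndufs6*, of complex I, at -0.31, and *Mrpl32* at -0.24 and its partner *Psma2*, of the proteasome, at -0.25. Other pairs lay further apart. *Mrpl54* stood at -0.48 and *Apba3* at -0.07, and *Mrps12* stood at -0.17 and the seryl-tRNA synthetase *Sars2* at 0.18. These partners are named after their values were seen.

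For 30 members, another gene in the table overlaps the span, mostly on the other strand. The same count was not made over all genes, and the strand setting of the counting is not given in the sources used here. *Mrpl46* and *Mrps11*, which lie head to head, are such a pair. Where the neighbour was weak the overlap can add little, as for *Mrpl13* at 2860 normalized counts beside *Mtbp* at 152. It could add more for *Mrps34* at 2378 beside *Mapk8ip3* at 4309 and for *Mrpl14* at 2267 beside *Tmem63b* at 6536. The same holds for *Mrpl47* at 1216 beside *Ndufb5* at 12962.5 and for *Mrpl36* at 1228 beside its partner *Ndufs6* at 10221. *Mrps24* at 2160 overlaps *Urgcp* at 3032 on the same strand. The pseudogenes *Mrpl23-ps1* and *Mrpl48-ps* were listed at 24.4 and 12.5 normalized counts, a small amount beside *Mrpl23* at 2007 and *Mrpl48* at 2679.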

How the data were processed

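RNAseq of 6 whole hearts, 3 NBCe1-B/C KO and 3 WT, was analysed from the table the authors deposited. Its values are a normalized signal per gene: reads counted by the authors and divided by a size factor per library, with no scaling to gene length. The submitters' processing notes name Trimmomatic 0.36, STAR 2.5.2b, Subread 1.5.2, featureCounts, DESeq2 and the build GRCm38. The strand setting and annotation are not given in the sources used here. Columns were matched to samples by the names in the sample descriptions, and the whole reads were recovered from the spacing of the values (100% whole within 0.01 read in every library).

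Symbols, positions, lengths and GC content came from GENCODE M21 (GRCm38). log2(normalized count + 1) was fitted with limma 3.58.1 with a variance trend. The test was two-sided, took in the 16016 genes whose mean was 10 or more, and was adjusted by the Benjamini-Hochberg method. edgeR 4.0.16 and DESeq2 1.42.0 were run on the recovered reads. The correction subtracted, per library, a spline fit (5 degrees of freedom each) in log2 transcript length and GC content. The steps were tested on simulated counts. With 3 mice per group an exact permutation test cannot go below p = 0.1.

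The members, the companion and marker lists and the tests were chosen with earlier results of these data known. Members named are the 6 largest differences among those with groups apart, the 6 with the lowest adjusted p by DESeq2, the 5 highest and 5 lowest per kb, the 3 most variable, and members of known role. The use of the principal transcript and the fits without KO replicate 2 beyond the planned one were added after the data had been seen.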

Additional observations from a re-analysis of the deposited data

How the results depend on the processing

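Pseudocount, filter, variance trend and sample weights changed none of the 6 family results by more than 1.5 times (counts) or 0.0499 (median, the SD between libraries). Rescaling to the same total moved the median to -0.24, while the median of all genes moved to -0.08. Members past an adjusted p of 0.05 went from 0 with limma and edgeR to 20 with DESeq2, 17 without its filters (3.42% of all genes were lower) and 9 without KO replicate 2. Leaving out each library gave a median of -0.20 to -0.13 and 25 (without WT replicate 1) to 44 members lower at an unadjusted p under 0.05. Over all genes 6.46% (without WT replicate 1) to 9.97% were lower in these fits. For 0 to 1 member all KO lay above all WT, against 15.6% of all genes with all 6 libraries. The deviations of samples with the same number had r = 0.23, 0.07 and -0.03, and those of samples with different numbers -0.18 to 0.15. The pair numbered 1 was thus the highest of all pairs. With the replicate block 38 members were lower, against 10.9% of all genes, and 0 passed.

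The length and GC correction, with or without the block, gave 19 members lower at an unadjusted p under 0.05 and a median of -0.066. Over all genes 6.69% were lower, and 7.84% with the block. All KO lay below all WT for 20 members, against 10% of all genes, and above for 1, against 11.2%. In DESeq2 the correction gave 17 lower, against 5.79% of all genes, 2 lower past the adjusted p, against 1.05%, and a median of -0.067. With the principal transcript it gave 11 lower, against 6.18% of all genes, 1 higher, against 7.39%, and a median of -0.033. All KO then lay below all WT for 13 members, against 9.33%, and above for 4, against 10.8%. By the longest transcript without KO replicate 2 the correction gave 12 lower, against 5.81%, and a median of -0.040. The cause was not tested.

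None of the 35 named members passed the adjusted p in any fit in which its sign turned. *Mrps5* turned to -0.072 with the same total, -0.046 with quantiles and -0.0049 with weights. Over the fits without 1 library, *Mrps5* ran from -0.031 to 0.031, *Mrpl44* from -0.053 to 0.024, *Mrps30* from -0.048 to 0.024 and *Mrps34* from -0.19 to 0.015. In DESeq2 without KO replicate 2, *Mrpl44*, *Mrps30* and *Mrps5* turned to 0.0091, 0.023 and -0.0055. Under the correction (with or without the block, then in DESeq2), the following turned: *Mrpl10* to 0.037 and 0.036, *Mrpl14* to 0.073 and 0.082, *Mrpl44* to 0.13 and 0.14, *Mrps12* to 0.025 and 0.020, *Mrps18a* to 0.039 and 0.039, *Mrps18b* to 0.12 and 0.12, *Mrps21* to 0.054 and 0.055, *Mrps27* to 0.053 and 0.054, *Mrps30* to 0.00024 and 0.0018, *Mrps34* to 0.060 and 0.065, *Mrps36* to 0.12 and 0.12 and *Mrps5* to -0.065 and -0.067. Under the correction by principal transcript, and then by the longest without KO replicate 2, the following turned: *Mrpl10* to 0.030 and 0.048, *Mrpl14* to 0.14 and 0.17, *Mrpl44* to 0.14 and 0.16, *Mrps12* to 0.072 and 0.038, *Mrps18a* to 0.18 and 0.040, *Mrps18b* to 0.14 and 0.14, *Mrps18c* to 0.025 and 0.012, *Mrps21* to 0.13 and 0.081, *Mrps27* to 0.039 and 0.040, *Mrps34* to 0.18 and 0.13, *Mrps36* to 0.18 and 0.14 and *Mrps5* to -0.091 and -0.072. Only the former turned *Mrpl23* (0.0051), *Mrpl42* (0.014) and *Mrps10* (0.088), and only the latter *Mrpl45* (0.0066) and *Mrps30* (0.032).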
